A study of Harpegnathos saltator with 35 samples.

Results

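The 66 genes described here stood higher in neuronal cultures of the ant Harpegnathos saltator after 24 h of juvenile hormone III (JH3). After the opposite change of hormone their difference lay within set bounds, which allowed a larger fall than rise. The genes were picked from a table of 14001 genes, of which 9873 reached 1 FPKM (fragments per gene length, scaled between libraries) in at least 3 libraries. All differences in level that chose them are on the log2 scale of the mean FPKM + 1. A member had to stand at least 0.5 higher after 24 h of JH3 than in the 20E baseline, as 400 genes did (4.05%). Each of its 3 24 h libraries had to lie above every library of the 20E baseline and of 30 min of JH3, which held for 2.46% of all genes tested and left 106. Its difference between JH3 cultures given 20E for 24 h and the JH3 baseline had to lie between -0.7 and 0.4, which left 70. Finally 5 genes, listed beforehand as early JH3 genes, were left out by name (cwo, Pino, Sidpn, Scp2 and LOC105192299). Every other condition was met by 4 of the 5, and 66 genes remained. Of these, 32 have a symbol and 34 are known only by number. After 24 h of 20E, 9 of the 66 stood at least 0.5 below the JH3 baseline, among them cmpy, AMPdeam and fz2. The upper bound of 0.4 allowed no rise of that size. The share of all genes tested that stood as far below was not counted, so nothing is read from the 9.

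Polyadenylated RNA was sequenced from 35 primary cultures of dissociated central brains. The 20E cultures had spent 5 days in 2 µM 20-hydroxyecdysone (20E) and were then given 2 µM JH3 for 30 min (3 libraries), 6 h (5) or 24 h (3), and their baseline of 5 libraries received the solvent DMSO for 30 min. The JH3 cultures had spent 5 days in 2 µM JH3 and were given 2 µM 20E for 30 min (5), 6 h (6) or 24 h (4), and their baseline of 4 libraries also received DMSO for 30 min. All cultures shared a medium with insulin, transferrin and selenium, progesterone and, until the last day before the switch, honeybee pupal extract. Each change of medium removed 1 hormone as it added the other. The baselines had only 30 min of DMSO, and no 24 h DMSO culture was analysed here. So 24 h of JH3, 24 h without 20E and the longer time in culture cannot be told apart. The series' design text calls the replicates independent cultures. Between libraries the reads assigned to genes ranged over 5937954 to 22650380. All 3 libraries of 24 h JH3 shared 1 number in their descriptions, which was taken to mark the sequencing run and is called run C here. Of the 20E baseline only replicate 4 was in run C, and of the 30 min JH3 group only replicate 3.

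Juvenile hormone and ecdysteroids are the main hormones of insect moulting and metamorphosis. Juvenile hormone acts inside the cell on the receptor Met and, through it, on the zinc finger gene Kr-h1, while 20E acts on a nuclear receptor pair of EcR and usp and sets off a cascade of early and late transcription factors. In adult social insects both hormones also bear on reproductive and worker states, and in Harpegnathos workers can become reproductive. Among the genes of a juvenile hormone list, 5 were tested in the 24 h comparison and 1, Kr-h1, was called higher by limma at an adjusted p under 0.05. Of 14 tested genes of an ecdysone response list, 0 were called in either direction, with a median difference of 0.10. Over all 9873 genes the fit called 0.203% higher and 0.0405% lower after 24 h of JH3, and no member belongs to either list.

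RNA of neuron markers was present in the cultures, beside that of markers of other cell types. All 9 neuron markers found in the table were present, with a summed level of 562 to 670 FPKM after 24 h of JH3 and 352 to 780 FPKM in the 20E baseline. The 5 glial markers found summed to 45.5 to 56.2 FPKM after 24 h of JH3 and 36.7 to 49.7 FPKM in the 20E baseline, and the 7 hemocyte and matrix markers to 43.2 to 57.7 and 32.9 to 54.9 FPKM in the same order. No marker of these 3 lists was at 0 throughout a group. The 9 muscle markers found summed to 58.5 to 67.8 FPKM after 24 h of JH3 and 49.3 to 87.0 FPKM in the 20E baseline. In the same order, the 4 fat body markers summed to 94.5 to 133 and 83.6 to 131 FPKM. The 6 photoreceptor markers summed to 11.3 to 20.3 and 6.3 to 20.8 FPKM, and to 12.5 to 147 FPKM in JH3 cultures given 20E for 30 min. The fat body sum rests mostly on FASN1, with a median of 83.7 FPKM over all libraries, against 2.8 to 5.6 FPKM for the other markers. In the muscle list the medians were 26.9 FPKM for Tm1, 16.6 FPKM for Mlc1 and 0.534 to 6.26 FPKM for the others. In bulk RNA of this kind, more cells of a type and more RNA per cell cannot be told apart.

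The values that chose the members are described here without a test. Across the 66 genes, 24 h of JH3 stood above the 20E baseline by a median of 0.77, with a lowest value of 0.50 and a highest of 4.28. Just inside the threshold were Pdfr at 0.5, eIF5 at 0.505 and LOC105186052 at 0.507, and just outside it were Scgdelta at 0.495, fat-spondin at 0.493 and LOC105189093 at 0.485. At the lower bound of the 20E condition cmpy lay inside at -0.690 and LOC105189290 outside at -0.703, and at the upper bound LOC105192098 lay inside at 0.390 and LOC105188765 outside at 0.438. The number of genes found depends on single libraries. It was 159 without 24 h replicate 1, 125 without 24 h replicate 3 and 123 without replicate 4 of the 20E baseline, of which 61, 61 and 60 were among the 66.

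Within run C alone, where the 20E baseline is a single library, all 66 members stood higher after 24 h of JH3, which the rule fixes, since it sets every 24 h library above that library too. Of the 66, 49 stood higher by at least 0.5. Of all genes tested, 53.1% stood higher and 19% by at least 0.5 in the same libraries, and nothing is read from these shares. The median of the members in run C was 0.71. The members are long genes of high level, with a median length of 7086 bases against 4111 for all genes tested, and a median 20E baseline of 16.8 FPKM against 7.42. Each library's slope of log2(FPKM + 1), taken as the deviation from the gene's mean, on log2 gene length was 0.112, 0.067 and -0.022 in the 24 h JH3 libraries and -0.136 to 0.134 in the 20E baseline. The part of this slope in the choice of members was not tested.

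Most of the 66 genes were nearer to the 20E baseline at 6 h of JH3 than to their 24 h level. The median difference from the 20E baseline was -0.20 at 30 min of JH3, 0.20 at 6 h and 0.77 at 24 h, while the median of all genes tested stayed within 0.01 of 0. At 6 h, 56 of the 66 stood above 0, where 48.1% of all genes did, and 12 stood at least 0.5 above, where 0.831% did. The comparisons at 6 h and 24 h share the baseline that chose the members, so these counts are descriptions. For 7 members the 6 h difference was at least 50% of the 24 h difference: Glut4EF, Delta, Cda4, igl, LOC112589018, LOC105189016 and LOC105185764. Of these, 4 had all 5 of their 6 h libraries above every 20E baseline library (Glut4EF, Delta, LOC112589018 and LOC105185764), which held for 0.203% of all genes tested. The other 59 members had less than that share of their 24 h difference at 6 h. The 5 genes left out by name were early JH3 genes, so this split describes the members only. It is not a property of all genes that stood higher after 24 h of JH3. Of those left out, cwo and Sidpn averaged more at 6 h than at 24 h. Pino and LOC105192299 were nearer to their 24 h level at 6 h, and Scp2 was nearer to the 20E baseline.

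**Figure D1:**
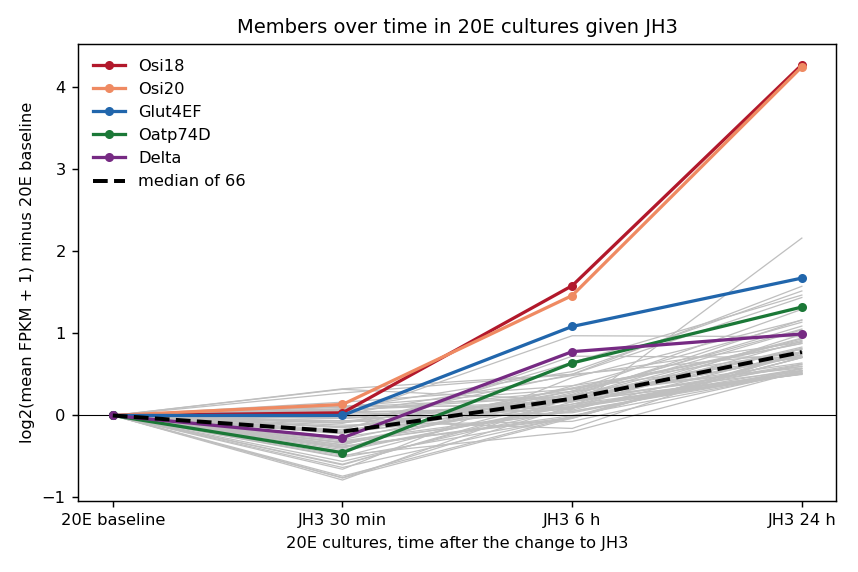
Difference of log2(mean FPKM + 1) from the 20E baseline (vertical axis) in 20E cultures at baseline and after 30 min, 6 h and 24 h of JH3 (horizontal axis), with 1 grey line per member, 5 members in colour and the median of all 66 dashed. Osi18 and Osi20 end above 4, Delta and Glut4EF reach most of their 24 h level by 6 h, and the median goes through -0.20 at 30 min to 0.77 at 24 h.

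Delta encodes the transmembrane ligand of the Notch receptor. It had 16.5, 16.4, 10.8, 15 and 14.9 FPKM in the 20E baseline, then 15.1, 11.4 and 9.63 FPKM at 30 min of JH3, 31.3, 27.9, 23.5, 27.8 and 19.5 FPKM at 6 h, and 28.8, 29.9 and 32.4 FPKM at 24 h. Every 6 h and 24 h library lay above every earlier one. The JH3 baseline, after 5 days of the same hormone, had 13.2, 10.9, 15.3 and 10.4 FPKM, a range that overlaps the 20E baseline. JH3 cultures given 20E averaged 12.5 ± 2.64 FPKM at 30 min, 16.9 ± 3.38 FPKM at 6 h and 15.9 ± 3.15 FPKM at 24 h (SD, n = 5, 6 and 4). The gene numb, an intracellular inhibitor of Notch signalling, averaged 123 ± 7.70 FPKM after 24 h of JH3 and 78.3 ± 8.19 FPKM in the 20E baseline (SD, n = 3 and 5). It stood at 107 ± 22.1 FPKM in the JH3 baseline (SD, n = 4).

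Glut4EF, named after a regulator of a glucose transporter gene in mammals, is a DNA-binding protein. It had 7.63, 7.76, 4.47, 9.19 and 7.82 FPKM in the 20E baseline, 7.37, 4.24 and 10.5 FPKM at 30 min of JH3, 18.4, 19.4, 12.6, 23.3 and 10.0 FPKM at 6 h, and 31.2, 28.0 and 18.0 FPKM at 24 h. The 6 h libraries all lay above the baseline, and 24 h replicate 3 lay within the range of the 6 h libraries. The JH3 baseline had 32.3, 53.1, 32.6 and 30.9 FPKM, so that 24 h of JH3 stood 0.52 below the level of 5-day JH3 cultures on the log2 scale. LOC112589018, known only by number, averaged 11.6 ± 2.44 FPKM in the 20E baseline, 23.7 ± 9.93 FPKM at 6 h and 23.5 ± 5.49 FPKM at 24 h (SD, n = 5, 5 and 3), and 10.7 ± 3.29 FPKM in the JH3 baseline (SD, n = 4). In JH3 cultures given 20E it averaged 8.77 ± 1.46 FPKM at 30 min, 14.5 ± 3.83 FPKM at 6 h and 11.2 ± 3.21 FPKM at 24 h (SD, n = 5, 6 and 4).

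The largest differences belonged to Osi18 and Osi20. They are Osiris genes, a family of insect membrane proteins that in Drosophila are tied to the forming of cuticle. Osi18 had 1.07, 62.5 and 7.63 FPKM after 24 h of JH3, against 0, 0.0683, 0.809, 0.502 and 0 FPKM in the 20E baseline. Osi20 had 1.18, 54.1 and 4.67 FPKM, against 0, 0.0374, 0.332, 0.138 and 0 FPKM. The lowest 24 h library of Osi18 rested on 9 reads and the highest on 386, and the 20E baseline libraries on 0 to 8. At 30 min of JH3, replicate 2 held 12 reads of Osi18, at 0.913 FPKM, which is more reads than in 24 h replicate 1, and 15 reads of Osi20, at 0.625 FPKM, beside 18 in 24 h replicate 1. The groups did not overlap, by the rule, but replicate 2 held 87.8% of the 24 h sum of Osi18 and 90.2% of that of Osi20.

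At 6 h of JH3 the same spread was seen, with Osi18 at 0.711, 0.0444, 12.2, 0.0896 and 1.06 FPKM and Osi20 at 0.260, 0, 8.75, 0 and 1.16 FPKM. For both genes replicate 3 was far above the others and replicate 5 next. In the 19 libraries of JH3 cultures Osi18 did not exceed 0.47 FPKM and Osi20 did not exceed 0.2 FPKM. No other member was so uneven. The ratio of highest to lowest 24 h library was 58.2 for Osi18 and 46.0 for Osi20, then 5.85 for Esp, named after a Drosophila gene of the sulfate and anion transporter family, and under that for the rest. Replicate 2 was the highest of the 3 24 h libraries for 40 members, where this held for 29% of all genes tested.

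The table holds 13 Osiris genes, which were looked at after the values of the 2 members had been seen. In the RefSeq gene order Osi17, Osi18, Osi19 and Osi20 follow one another. Osi19 was not a member, since 1 baseline library at 1.84 FPKM lay above 24 h replicate 1, but its 24 h values of 1.63, 88.8 and 10.6 FPKM had the order of its neighbours. Osi15 had 0, 17.1 and 0.22 FPKM, Osi9 had 0.42, 23.5 and 0.25 FPKM and Osi17 had 0.13, 8.78 and 0.75 FPKM after 24 h of JH3. Of the 13 genes, 8 reached 1 FPKM in replicate 2 and 3 did so in each of replicates 1 and 3. What set 24 h replicate 2 and 6 h replicate 3 apart was not tested.

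**Figure D2:**
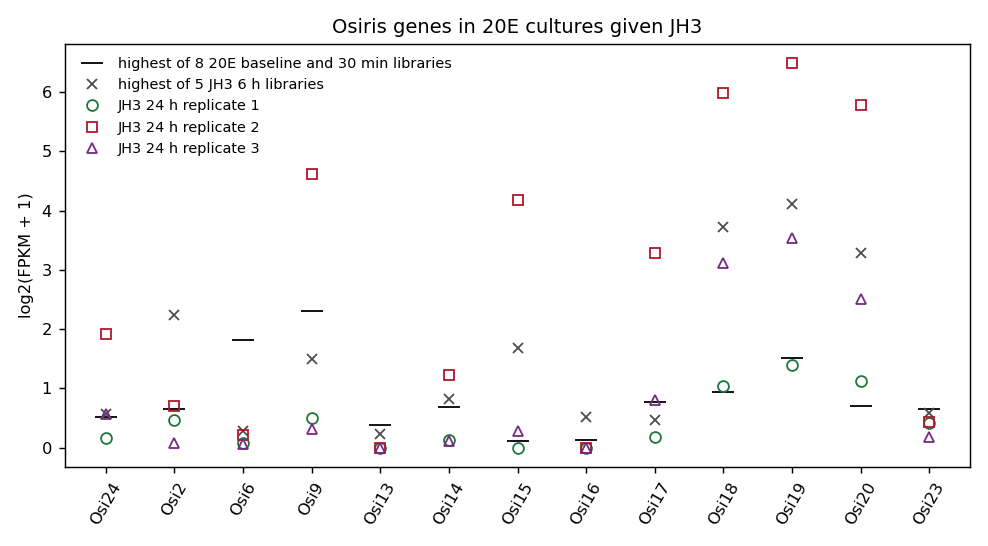
log2(FPKM + 1) of the 13 Osiris genes in 20E cultures (vertical axis), as the highest of the 8 baseline and 30 min libraries, the highest of the 5 libraries of 6 h JH3, and each of the 3 libraries of 24 h JH3. Replicate 2 stands highest for Osi9, Osi15 and Osi17 to Osi20, where Osi18 has 62.5, Osi19 88.8 and Osi20 54.1 FPKM.

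The members described next were picked by role after the set was known, and no count of their classes over all genes was made. Oatp74D, which imports ecdysone into cells in Drosophila, had 35.3, 41.0 and 24.3 FPKM after 24 h of JH3, against 11, 15.1, 6.42, 21.3 and 10.3 FPKM in the 20E baseline. Its JH3 baseline, at 10.0, 18.7, 11.3 and 11.7 FPKM, lay within the range of the 20E baseline. Baseline replicate 4, the run C library, was the highest of its group and lay 0.63 below the 24 h mean on the log2 scale. The potassium chloride cotransporter kcc, which sets neuronal chloride, had 148, 161 and 127 FPKM after 24 h of JH3, against 53.9, 81.5, 45.2, 94.7 and 63.3 FPKM in the 20E baseline. Its JH3 baseline averaged 152 ± 31.3 FPKM (SD, n = 4), near the 24 h level.

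Nckx30C, a sodium, calcium and potassium exchanger, had 24.7, 37.3 and 26.5 FPKM after 24 h of JH3, against 10.3, 12.6, 9.84, 20.2 and 11.4 FPKM in the 20E baseline. Stacl, an adaptor that works with voltage-gated calcium channels, averaged 42.5 ± 6.36 FPKM after 24 h of JH3 and 18.4 ± 4.12 FPKM in the 20E baseline (SD, n = 3 and 5). Its neighbour in gene order, LOC105182486, was also a member. Among the 66 there are 6 such pairs at most 2 places apart. The others are Osi18 with Osi20, dnc with LOC105185292, eIF5 with LOC112588321, LOC105185763 with LOC105185764, and LOC105184726 with LOC105184725.

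Among the members are genes that make, break down or respond to cAMP. Pdfr, the receptor of the clock neuropeptide PDF, had 3.78, 3.43 and 3.10 FPKM after 24 h of JH3, against 0.898, 2.80, 1.93, 2.64 and 2.41 FPKM in the 20E baseline. Adcy2, an adenylyl cyclase that makes cAMP, averaged 3.12 ± 0.345 FPKM after 24 h of JH3 and 1.5 ± 0.664 FPKM in the 20E baseline (SD, n = 3 and 5). The phosphodiesterase dnc breaks cAMP down and is needed for olfactory learning in Drosophila. It had 51.0, 54.4 and 51.6 FPKM after 24 h of JH3, against 26.1, 27.9, 20.6, 47.7 and 29.0 FPKM in the 20E baseline, and the run C baseline library lay 0.13 below the 24 h mean on the log2 scale. Pka-R1, the regulatory subunit of the cAMP-dependent kinase, averaged 27.1 ± 3.17 FPKM after 24 h of JH3 and 18.2 ± 4.04 FPKM in the 20E baseline (SD, n = 3 and 5). The gene dnc is also in the list of 6 mushroom body markers found in the table, whose summed level was 568.3 to 685 FPKM after 24 h of JH3 and 352 to 580 FPKM in the 20E baseline. In the JH3 baseline the sum was 344 to 694 FPKM. It rests largely on the marker mub, with a median of 311 FPKM over all libraries, and no rise of the list is read from these ranges.

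At the synapse, the acetylcholine transporter of vesicles, VAChT, had 24.5, 28.9 and 21.2 FPKM after 24 h of JH3, against 17.0, 18.2, 12.8, 20.3 and 16.9 FPKM in the 20E baseline. The acetylcholine receptor subunit nAChRa7 had 60.9, 56.2 and 54.8 FPKM, against 29.1, 27.9, 26.9, 52.8 and 35.7 FPKM. For both genes the run C library was the highest of the baseline, and for nAChRa7 it lay 0.12 below the 24 h mean on the log2 scale, the smallest difference of the 66 within that run. Rop, the Sec1/Munc18 protein of vesicle release, averaged 111 ± 6.27 FPKM after 24 h of JH3 and 77.1 ± 10.5 FPKM in the 20E baseline (SD, n = 3 and 5).

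Some members encode extracellular or surface proteins, also picked by role. Col4a1, the collagen IV chain of basement membrane, had 4.81, 8.65 and 5.82 FPKM after 24 h of JH3, against 1.27, 3.76, 1.94, 2.40 and 4.34 FPKM in the 20E baseline. Fstl5, a secreted follistatin-like protein, had 65.8, 70.0 and 59.3 FPKM, against 31.8, 36.3, 23.2, 42.8 and 32.6 FPKM. The Wnt receptor fz2 averaged 67.5 ± 3.68 FPKM after 24 h of JH3 and 38.1 ± 6.85 FPKM in the 20E baseline (SD, n = 3 and 5). Col4a1 and Fstl5 had JH3 baselines of 2.58 ± 1.25 and 27.5 ± 6.45 FPKM (SD, n = 4), not above the 20E baselines of 2.74 ± 1.28 and 33.3 ± 7.13 FPKM (SD, n = 5). The chitin deacetylase Cda4 and the hexosaminidase fdl averaged 4.83 ± 0.316 and 19 ± 2.39 FPKM after 24 h of JH3 (SD, n = 3), against 2.43 ± 1.04 and 11 ± 1.91 FPKM in the 20E baseline (SD, n = 5).

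The members with the highest levels after 24 h of JH3 included igl, a calmodulin-binding protein of neurons, with 200, 228 and 224 FPKM, against 103, 166, 144, 165 and 148 FPKM in the 20E baseline. The membrane skeleton gene alpha-Spec had 133, 159 and 129 FPKM, against 96.5, 120, 76.0, 71.9 and 107 FPKM. The translation initiation factor eIF5 had 128, 141 and 148 FPKM, against 82.7, 105, 96.1, 85.7 and 119 FPKM. These are among the smallest differences of the set, at 0.58, 0.57 and 0.51 on the log2 scale. In all, 25 members averaged above 50 FPKM after 24 h of JH3 and 8 under 5 FPKM.

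The 66 genes split by their level in cultures that had spent 5 days in JH3. The JH3 baseline stood above the 20E baseline by at least 0.5 for 31 members, where 9.18% of all genes tested did, below it by at least 0.5 for 1 (LOC105183554), where 9.34% did, and between for 34. The median of the members was 0.48, with a range of -0.70 to 2.44. Since the baselines entered the rule and the 24 h difference shares the 20E baseline, these counts are a description. The 31 included Glut4EF, Esp, kcc, Nckx30C, cmpy, igl, AMPdeam, Pka-R1, Pdfr, dnc, VAChT, Rop, fz2 and fdl. The 34 included Osi18, Osi20, Oatp74D, Delta, Col4a1, Fstl5, nAChRa7, alpha-Spec, eIF5, twz and numb. Set directly beside the JH3 baseline, 24 h of JH3 stood at least 0.5 higher for 26 members, where 10.4% of all genes tested did, and at least 0.5 lower for 10, where 7% did.

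The next counts were not made over all genes that were as high in the JH3 baseline. The rule also asked for high 24 h libraries, so nothing is read from these counts. Of the 31 members high in the JH3 baseline, 20 stood below it after 24 h of JH3, 10 of them by at least 0.5, and 11 stood above it, 2 of them by at least 0.5. Nckx30C was among those above, with a JH3 baseline of 19.2 ± 4.77 FPKM (SD, n = 4). Among those below, cmpy, which in Drosophila motor neurons acts on BMP signalling, had 53.2, 56.1 and 47.4 FPKM after 24 h of JH3 and 107, 112, 98.7 and 68.6 FPKM in the JH3 baseline, against 32.6, 30.6, 22.2, 31.2 and 29.0 FPKM in the 20E baseline. Its 3 groups did not overlap. AMPdeam, the enzyme that deaminates AMP, averaged 54.2 ± 8.58 FPKM after 24 h of JH3, 89.9 ± 22.5 FPKM in the JH3 baseline and 30.5 ± 4.93 FPKM in the 20E baseline (SD, n = 3, 4 and 5). LOC105184726, known only by number, had 2.63, 2.28 and 1.87 FPKM after 24 h of JH3 and 12.9, 14.4, 9.23 and 6.99 FPKM in the JH3 baseline, against 0.836, 1.30, 0.965, 1.75 and 1.10 FPKM in the 20E baseline.

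**Figure D3:**
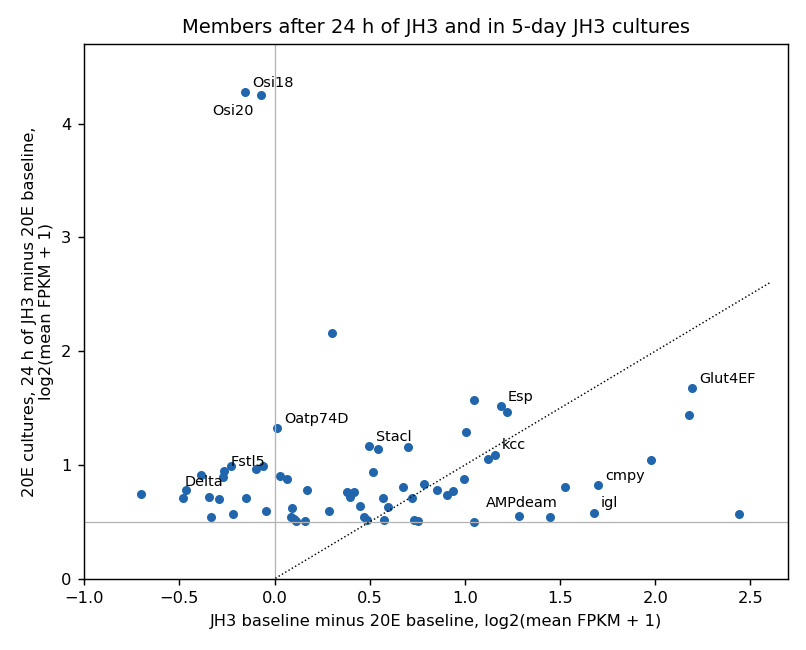
For each of the 66 members, the difference of log2(mean FPKM + 1) between 24 h of JH3 and the 20E baseline (vertical axis) and between the JH3 baseline and the 20E baseline (horizontal axis), with equal values dotted and 0.5 marked by a grey line. Both axes share the 20E baseline. Osi18 and Osi20 lie above 4 near 0 on the horizontal axis, and Glut4EF, cmpy, igl and AMPdeam lie right of the dotted line.

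**Figure D4:**
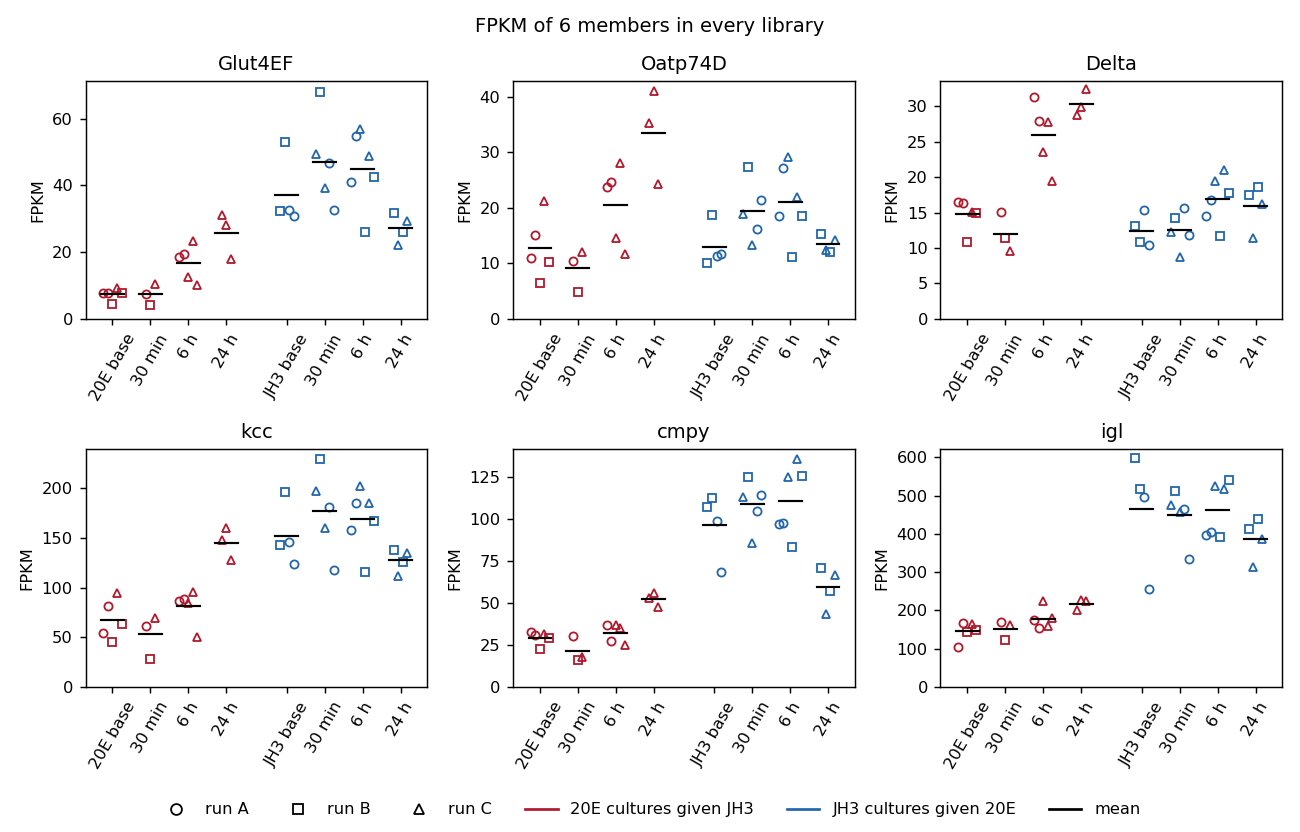
FPKM of Glut4EF, Oatp74D, Delta, kcc, cmpy and igl (vertical axes, from 0) in all 35 libraries by group (horizontal axis), with the sequencing run as the symbol and the group mean as a bar. Delta stands at 19.5 FPKM or more at 6 h and 24 h of JH3 in 20E cultures, every library of igl stands higher in the JH3 cultures than in the 20E cultures, and cmpy overlaps only between the 24 h groups, where JH3 cultures given 20E reach down to 43.4 FPKM.

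Tests were possible among 16 libraries, those of 6 h JH3 in 20E cultures and of 30 min and 6 h 20E in JH3 cultures. They entered the choice of members only through the FPKM filter, which counted all 35 libraries. The first comparison set 6 h of 20E beside 30 min of 20E within JH3 cultures. The rule had already bounded the members' 24 h difference with 20E in such cultures, and few genes at all were called. A count of 0 members is therefore not a result about the members. For JH3 cultures given 20E for 6 h against those given it for 30 min, limma called 0 members in either direction, while it called 54 of 9873 genes, or 0.547% (0.466% higher and 0.081% lower). At an unadjusted p under 0.05 there were 4 members, near the 5.33% of all genes that passed that mark. At 6 h of 20E, LOC112589018 (0.59) and Delta (0.41) stood higher, and LOC105185763 (-0.70) and Esp (-0.77) lower. The voom method of limma on recovered reads also called 0. With library weights 1 member was called higher. The median difference was -0.05 over the members and 0.00 over all genes. In the ecdysone list 4 of 14 genes were called higher in this comparison and 0 lower.

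The other tests compared 20E cultures given JH3 for 6 h with JH3 cultures given 20E. They differ in 5 days of culture and in the hormone of the last hours, and these cannot be told apart. Most members that differed were lower in the 20E cultures. Against JH3 cultures given 20E for 6 h, limma called 23 members lower at an adjusted p under 0.05, where 11.4% of all genes were, and 6 higher, where 8.11% were. Against JH3 cultures given 20E for 30 min it called 31 members lower, with 13.8% of all genes, and 5 higher, with 11.8%. The 2 comparisons share the 6 h JH3 libraries. The median difference was -0.25 and -0.42 over the members, and 0.01 over all genes in both.

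The lower calls lay mostly among members with a high 5-day level, as they did among all genes. Of the 31 members high in the JH3 baseline, 20 were lower in the first comparison and 26 in the second, and 1 and 0 were higher. Of the 906 genes tested that were as high in the JH3 baseline, 65.1% were lower in the first comparison and 67.7% in the second, and 0.11% were higher in each, so the counts of lower members in the first comparison are near that background and are not a result about the members. Of the 34 between, 3 and 5 were lower, where 6.6% and 9.37% of such genes were, and 4 and 4 higher, where 6.36% and 9.68% were. Within run A, with 2 libraries a group, 4 members were called lower and 0 higher in the first comparison, where 0.699% and 0.284% of all genes were, and 5 and 1 in the second, where 1.22% and 0.648% were. Within runs B and C, 22 were lower and 5 higher in the first, with 7.7% and 4.44% of all genes, and 22 and 2 in the second, with 9.94% and 6.44%. The summed level of the 9 neuron markers was 442 to 530 FPKM in the 6 h JH3 libraries, against 577 to 824 FPKM in JH3 cultures given 20E for 6 h and 574 to 841 FPKM in those given it for 30 min. These ranges do not overlap, 5 and 4 of the 9 markers were called lower in the 2 comparisons and 0 higher, and the part of cell makeup in the members' calls was not tested. In the ecdysone list, 8 and 4 of 14 genes were lower and 4 and 5 higher, and in the juvenile hormone list 1 of 5 was lower and 1 higher in each.

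Of the lower members, cmpy had the smallest p among those with a symbol. It had 36.7, 27.2, 37.2, 35 and 24.9 FPKM in 20E cultures given JH3 for 6 h, against 83.7, 111 and 136 FPKM as the lowest, median and highest of 6 JH3 cultures given 20E for 6 h. The limma difference was -1.75 (SE 0.17, adjusted p = 2.35e-08) and the groups did not overlap. The calmodulin-binding gene igl averaged 178 ± 27.8 FPKM, against 463 ± 72 FPKM (SD, n = 5 and 6), a limma difference of -1.35 (SE 0.16, adjusted p = 7.31e-07). Glut4EF averaged 16.8 ± 5.39 FPKM, against 45.1 ± 11.3 FPKM (SD, n = 5 and 6), a limma difference of -1.44 (SE 0.24, adjusted p = 7.33e-05). The gene cmpy and Glut4EF kept the call under every alternative run, and igl lost it within run A.

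The same direction was seen for AMPdeam, at -1.16 (SE 0.17), and for the cAMP genes Pka-R1, at -0.88 (SE 0.13), Pdfr, at -1.20 (SE 0.19), dnc, at -1.02 (SE 0.20), and Adcy2, at -0.75 (SE 0.19). VAChT differed by -0.99 (SE 0.16), kcc by -1.13 (SE 0.22) and Rop by -0.72 (SE 0.14). For these 8 genes the limma adjusted p was between 1.54e-05 and 0.00532, and all 5 of the 6 h JH3 libraries lay below the mean of the JH3 cultures given 20E for 6 h. Each of the 8 lost the call within run A. Among the members known only by number LOC105184726 differed most, with 1.35 ± 0.130 FPKM in 20E cultures given JH3 for 6 h, against 14.7 ± 2.88 FPKM in JH3 cultures given 20E for 6 h (SD, n = 5 and 6), and limma gave -2.71 (SE 0.17, adjusted p = 1.21e-12). It was named after its values were seen, as was its neighbour LOC105184725, at -2.08 (SE 0.25, limma adjusted p = 6.52e-07).

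Delta went the other way. It averaged 26.0 ± 4.56 FPKM in 20E cultures given JH3 for 6 h, against 12.5 ± 2.64 FPKM in JH3 cultures given 20E for 30 min (SD, n = 5 each), and the lowest of the first group, 19.5 FPKM, lay above the highest of the second, 15.7 FPKM. The limma difference was 1.01 (SE 0.16, adjusted p = 2.45e-05), and it was called under every alternative run. Against JH3 cultures given 20E for 6 h, at 16.9 ± 3.38 FPKM (SD, n = 6), the difference was 0.61 (SE 0.15, limma adjusted p = 0.00555). There 5 of 5 libraries lay above the other group's mean but the groups overlapped, and the call was lost in run A alone, in the other runs, and when only the 2 compared groups were fitted. LOC112589018 differed by 1.33 (SE 0.21, limma adjusted p = 3.03e-05) from JH3 cultures given 20E for 30 min, and lost the call within run A.

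The remaining members with a symbol that were higher were twz and nAChRa7. In twz the 20E cultures given JH3 for 6 h averaged 3.53 ± 0.661 FPKM, against 1.99 ± 0.258 FPKM in JH3 cultures given 20E for 6 h (SD, n = 5 and 6). The limma difference was 0.64 (SE 0.17, adjusted p = 0.00776), and the call was lost within run A. Against JH3 cultures given 20E for 30 min twz was not called (limma adjusted p = 0.174). In nAChRa7 the 20E cultures given JH3 for 6 h averaged 39.8 ± 5.81 FPKM, against 29.8 ± 3.42 FPKM in JH3 cultures given 20E for 30 min (SD, n = 5 each). The limma difference was 0.38 (SE 0.13, adjusted p = 0.035). The call was lost within run A, in the other runs, with voom, and on leaving out any of several single libraries. Against JH3 cultures given 20E for 6 h nAChRa7 was not called (limma adjusted p = 0.0889). The count of 5 higher members against JH3 cultures given 20E for 30 min was 3 without replicate 4 of 6 h JH3. Osi18 and Osi20 had limma differences of 1.09 (SE 0.55) and 0.93 (SE 0.51) from JH3 cultures given 20E for 6 h and were not called (adjusted p = 0.17 and 0.208). Both reached 1 FPKM only in 20E cultures given JH3 for 6 h or 24 h, so they passed the filter only through those groups. Oatp74D had -0.14 (SE 0.27, limma adjusted p = 0.759), with 20.5 ± 7 FPKM, against 21.1 ± 6.54 FPKM (SD, n = 5 and 6).

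**Figure D5:**
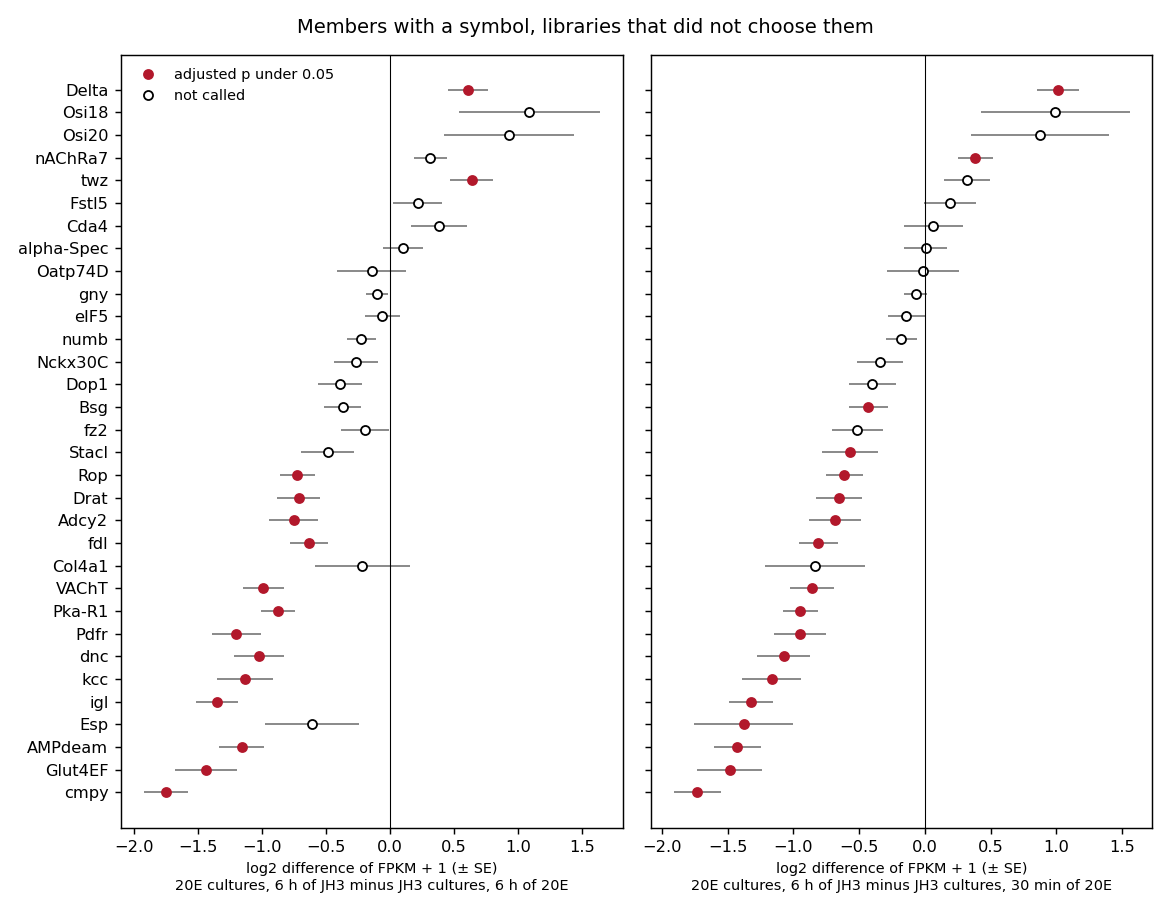
limma difference of log2(FPKM + 1) with its SE (horizontal axes) for the 32 members with a symbol (rows), between 20E cultures given JH3 for 6 h and JH3 cultures given 20E for 6 h (left) or 30 min (right), with filled points for an adjusted p under 0.05. In the 6 h comparison, 13 of the 32 are called lower and 2 higher. In the 30 min comparison, 16 are called lower and 2 higher, with Delta at 1.01 and cmpy at -1.73 at the ends.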

How the data were processed

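The authors deposited 1 table of FPKM values for 14001 genes in 35 libraries. The submitters' processing notes name STAR, featureCounts, DESeq2 and bcl2fastq, and the libraries were strand-specific, per the labels' protocols. No coordinates are printed, since the build is not given in the sources used here. Steps in each gene's FPKM values allowed whole reads and a length to be recovered for 12910 genes, with 100.0% of nonzero values within 0.03 of a whole number. Symbols and gene order came from RefSeq (assembly Hsal_v8.6), where 13989 of 14001 identifiers matched and 4116 had a symbol. Sequences were not used here.

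The filter kept genes that reached FPKM 1 in 3 or more libraries. log2(FPKM + 1) was fitted with limma 3.58.1 (R 4.3.3) on group and sequencing run over all 35 libraries, with a trended prior and robust estimation. Tests were two-sided, with Benjamini-Hochberg adjustment over 9873 genes. The added 1 makes differences of low genes look smaller than they are, and fitted differences are adjusted for run. A number in the sample descriptions was taken to mark the sequencing run and gave the 3 runs. The fit and the read recovery were tested on simulated data.

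The members and 28 gene lists were chosen with earlier results of these data known. Named members, 22 by rule, were those with the largest 24 h differences or levels, the smallest p in each tested comparison, in a fixed list, or at the threshold. Other members with a symbol are named for their role, and members known only by number after their values were seen. Alternatives were pseudocounts of 0.5 and 0.1, filters, thresholds of 0.3 and 1, rescaling, quantile normalization, no run term, library weights, a replicate block, a length covariate, fits of fewer groups or runs, voom, and leaving out each library.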

Additional observations from a re-analysis of the deposited data

Results flagged for a closer look

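In 13 of 132 pairs of a group and a named member, 1 library stood apart from the others of its group by Dixon's criterion, which chance alone gives in about 1 of 20 groups. The 2 groups of 3 libraries, 30 min and 24 h of JH3 in 20E cultures, were not examined in this way. Osi18 had 12.2 FPKM in replicate 3 of 20E cultures given JH3 for 6 h, where the others had 0.0444 to 1.06 FPKM. Osi20 had 8.75 FPKM in the same library, where the others had 0 to 1.16 FPKM. The other values of this pair are of near absence. Osi18 had 0.105 FPKM in replicate 4 of JH3 cultures given 20E for 24 h, and Osi20 had 0.0684 FPKM in replicate 6 of JH3 cultures given 20E for 6 h and 0.2 FPKM in JH3 baseline replicate 1, all with the rest of the group at 0.

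JH3 baseline replicate 4 was low for VAChT, at 19.2 FPKM where the others had 32.2 to 32.4 FPKM, and for dnc, at 32.6 FPKM where the others had 64.9 to 68.8 FPKM. JH3 baseline replicate 2 had 53.1 FPKM of Glut4EF, where the others had 30.9 to 32.6 FPKM. In the 20E baseline, replicate 4 had 20.2 FPKM of Nckx30C, where the others had 9.84 to 12.6 FPKM, and replicate 3 had 10.8 FPKM of Delta, where the others had 14.9 to 16.5 FPKM.

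kcc had 50.1 FPKM in replicate 5 of 20E cultures given JH3 for 6 h, where the others had 84.3 to 95.5 FPKM. eIF5 had 92.8 FPKM in replicate 4 of JH3 cultures given 20E for 6 h, where the others had 116 to 127 FPKM. Pka-R1 had 34.3 FPKM in replicate 5 of JH3 cultures given 20E for 30 min, where the others had 43.2 to 46.5 FPKM. None of these was tested further.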

How the results depend on the processing

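The 66 members became 136 at a threshold of 0.3 and 16 at a threshold of 1, and 61 to 159 when single libraries of the rule were left out. Quantile normalization found 52, of which 44 were among the 66. For JH3 cultures given 20E for 6 h against 30 min, 0 members were called in either direction on leaving out any library, and 1 was called higher with library weights. For 6 h of JH3 against JH3 cultures given 20E for 6 h, the 6 higher members became 10 with gene length as a covariate and 0 within run A, and the 23 lower became 4 within run A. Leaving out single libraries gave 4 to 6 higher and 22 to 27 lower. For 6 h of JH3 against JH3 cultures given 20E for 30 min, the 5 higher became 8 with library weights, 10 with the length covariate, 1 in run A alone and 2 in the other runs, and the 31 lower became 19 when only the 2 groups were fitted and 5 within run A. Leaving out single libraries gave 3 to 5 higher and 25 to 31 lower. Run A fits hold fewer samples. The causes of the other shifts were not tested.

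Same-numbered libraries did not deviate together in every pair (correlations -0.56 to 0.49), so the numbers were not taken to pair cultures. With the replicate block the counts were 0 and 0, then 6 higher and 22 lower, then 5 higher and 29 lower. Over 65 called gene results and 1585 alternative values, 1426 kept the call, 159 lost it in the same direction and 0 changed direction, and 10 results were called under every alternative. Depth limits Osi18 and Osi20, whose baseline libraries rest on few reads. Promoter and protein sequences were not analysed here.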
